A study of Homo sapiens with 2 samples.

Results

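The genes described here are 9 components and targets of the transforming growth factor beta (TGF-beta) pathway in SF-539 glioblastoma cells. They comprise the ligands TGFB1, TGFB2 and TGFB3, the receptors TGFBR1 and TGFBR2, the signal carrier SMAD3, its inhibitors SMAD7 and SKIL, and the matrix target TGFBI. They were selected by gene name, a rule that itself uses no measured value, but the list was chosen with earlier results of these data known. All 9 were found among the 58735 genes of the deposited expression table. SF-539 is an established human glioblastoma line, grown in DMEM with fetal bovine serum and used at passages 15 to 18. Cells of both groups had been infected with a lentivirus of the pGIPZ type and selected with puromycin as stable clones, so both carried a vector and had passed the same selection. The shControl cells carried the control construct and the shFKBP9 cells an shRNA against FKBP9, an FK506-binding protein of the endoplasmic reticulum. Each group was 1 library, and neither the number of clones behind a library nor which shRNA against FKBP9 was used is stated in the labels.

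TGF-beta ligands are secreted in a latent complex that is tethered to the extracellular matrix and are released from it by integrins, proteases or thrombospondin. The free ligand brings the type II receptor TGFBR2 together with the type I receptor TGFBR1, which phosphorylates SMAD2 and SMAD3, and these enter the nucleus with SMAD4 to regulate target genes. Among the targets are inhibitors of the pathway itself, including SMAD7 and SKIL, and in glioblastoma the pathway is known for its links to invasion, mesenchymal gene expression and immune suppression.

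Expression was deposited as FPKM, fragments per kilobase of gene length scaled to the size of the library, and the whole fragments behind each value could be recovered. The shControl library held 18116873 fragments on genes and the shFKBP9 library 17158514. FKBP9, the shRNA target, had 49.8 FPKM in shControl and 4.68 FPKM in shFKBP9, a log2 ratio of -3.38 (95% interval -3.56 to -3.27). The labels call the cells epithelial glioma cells. The epithelial markers CDH1 and EPCAM had 0 and 11 fragments in shControl and 1 and 14 in shFKBP9, the 5 epithelial markers summed to 1.77 and 1.57 FPKM, and KRT8 alone of them reached 1 FPKM. The 7 glial and neural markers summed to 4.89 and 4.20 FPKM. Of these, NES was at 2.36 and 2.17 FPKM, PDGFRA at 1.46 and 0.976 FPKM with a log2 ratio of -0.54 (-0.87 to -0.29), and the astrocyte marker GFAP at 0.196 and 0.139 FPKM, with AQP4 at 0 fragments in both libraries. The mesenchymal marker VIM was at 277 and 295 FPKM, and the 4 mesenchymal markers summed to 347 and 383 FPKM. All 4 had a ratio interval above 0, as did 20.8% of the 8372 genes that reached 3 FPKM in both libraries. The log2 ratio of VIM was 0.09, and CHI3L1 had the highest, 0.96, at 9.89 and 19.3 FPKM. The part of these marker differences in the results below was not tested. The 5 leukocyte and endothelial markers summed to 0.412 and 0.374 FPKM, with PTPRC and AIF1 at 0 fragments in both libraries.

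Throughout, a log2 ratio is that of shFKBP9 over shControl with 0.1 FPKM added to both values. The interval beside it is the exact 95% interval of the fragment counts, without the added 0.1, and covers counting error only. With 1 library per group there was no replicate check and no test between the conditions, so higher and lower describe these libraries. As these are bulk libraries, a smaller number of cells that express a gene and less RNA of it per cell cannot be told apart.

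All 9 members were expressed, from 3.04 to 1136 FPKM in shControl, and the ratios between the libraries were moderate. None of the 9 passed 2-fold, which 4.21% of the 12741 genes that reached 1 FPKM in a library did, and 0.203% of the 8372 genes that reached 3 FPKM in both, the range in which the members lie. A smaller threshold was a log2 ratio of 0.32 in size, that is 25% higher or 20% lower. TGFBR1 and SKIL passed it on the higher side and SMAD3 on the lower side in shFKBP9, that is 3 of 9, whereas 20.9% of the 12741 genes passed it, 9.83% higher and 11.1% lower. Of the 8372 genes, 9.65% passed it, 4.72% higher and 4.93% lower. The counting interval left out 0 for 7 of the 9 members, with 5 above and 2 below. It did so for 46.1% of the 8372 genes, 20.8% above and 25.3% below, and for 30.8% of the 17105 genes with 10 or more fragments when both libraries were added, 13.8% above and 16.9% below. The median log2 ratio was 0.22 over the members and -0.02 over the 12741 genes.

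Of the 3 ligands, TGFB2 was higher and TGFB3 lower in shFKBP9 while their summed level was nearly the same, at 100.6 and 99.8 FPKM. TGFB1 was the most abundant of them, with 76.9 FPKM in shControl and 76.1 FPKM in shFKBP9, from 4507 and 4228 fragments. Its log2 ratio of -0.02 (-0.08 to 0.05) had an interval that included 0, and its sign depended on the scaling, being 0.01 with a trimmed mean of log ratios. TGFB1, the isoform with the widest expression among tissues, made up 76.4% of the ligand level in shControl and 76.2% in shFKBP9.

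TGFB2 was at 11.6 FPKM in shControl and 13.6 FPKM in shFKBP9, a log2 ratio of 0.23 (0.11 to 0.35). TGFB3 was at 12.1 FPKM in shControl and 10.1 FPKM in shFKBP9, a log2 ratio of -0.26 (-0.39 to -0.13). These isoforms bind the same receptor pair, TGFB2 needing the coreceptor betaglycan for efficient binding. Which of them had the higher level depended on the gene length used. Per deposited length TGFB2 lay above TGFB3 in shFKBP9, whereas per length of the canonical GENCODE transcript TGFB3 was the higher in both libraries, at 17.3 and 14.4 FPKM against 10.2 and 11.95 FPKM for TGFB2. The ratio of TGFB2 to TGFB3 within a library was 0.959 in shControl and 1.35 in shFKBP9, a log2 change of 0.49 (0.31 to 0.67), and this change, unlike the ratios themselves, depends neither on library size nor on gene length. Against TGFB1 the isoforms moved apart, the ratio of TGFB1 to TGFB2 being 6.63 in shControl and 5.59 in shFKBP9, a log2 change of -0.25 (-0.38 to -0.11), and that of TGFB1 to TGFB3 being 6.36 and 7.54, a log2 change of 0.25 (0.10 to 0.39). Of the 8372 genes, 10.4% had a log2 ratio at least as high as that of TGFB2 and 8.76% one at least as low as that of TGFB3, so neither ratio stood far from those of other genes.

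Genes that overlap a ligand in the genome limit these values, since the library kit is not stated to keep strand. TGFB1 (chr19:41301587-41353911, minus strand, hg38) shares 6012 bases with HNRNPUL1, a nuclear RNA-binding protein gene on the opposite strand with 66.4 and 59.4 FPKM. On that strand it also shares 14695 bases with CCDC97, at 11.5 and 9.77 FPKM, and 3001 bases with TMEM91, at 2.77 and 1.96 FPKM. With all its overlapping genes summed, TGFB1 supplied 35.0% of the fragments and the log2 ratio was -0.12 (-0.15 to -0.08). The sum takes each gene whole, so it does not measure how many fragments came from the shared bases. TGFB3 (chr14:75958099-75982991, minus strand) overlaps IFT43, a component of cilia transport with 11.5 and 11.0 FPKM, and the sum over TGFB3 and its overlapping genes gave -0.17 (-0.26 to -0.07). TGFB2 (chr1:218346235-218444619, plus strand) shares its locus with TGFB2-OT1, which had 0 fragments in both libraries.

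Both receptors were higher in the shFKBP9 library, and the type I receptor more so. TGFBR1, the serine/threonine kinase that phosphorylates SMAD2 and SMAD3, had 13.1 FPKM in shControl and 18.8 FPKM in shFKBP9, from 1625 and 2206 fragments. This ratio of 1.43, or a log2 ratio of 0.51 (0.42 to 0.61), was the highest among the members, and 1.21% of the 8372 genes had one as high. TGFBR2, the ligand-binding type II kinase, had 25.7 FPKM in shControl and 30.0 FPKM in shFKBP9, a log2 ratio of 0.22 (0.14 to 0.31) that 11.0% of these genes reached. TGFBR2 remained the more abundant receptor, but the ratio of TGFBR1 to TGFBR2 was 0.510 in shControl and 0.625 in shFKBP9, a log2 change of 0.30 (0.17 to 0.42). TGFBR1 (chr9:99104038-99154192, plus strand) and TGFBR2 (chr3:30606502-30694142, plus strand) each overlap 1 other gene, and those genes had at most 1 fragment in a library.

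SMAD3, the receptor-activated SMAD that binds DNA directly, was the member with the lowest ratio. It had 11.4 FPKM in shControl and 7.78 FPKM in shFKBP9, from 1886 and 1217 fragments, and was thus 31.9% lower in shFKBP9. Its log2 ratio was -0.55 (-0.66 to -0.45), and 0.669% of the 8372 genes had one as low. The SMAD3 locus (chr15:67063763-67195195, plus strand) also holds AC012568.1 and AC087482.1, with 3 and 9 fragments in shControl and 2 and 5 in shFKBP9, so that 99.4% of the fragments there were those of SMAD3.

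Of the inhibitors of SMAD signalling among the members, SKIL was higher in shFKBP9 and SMAD7 had an interval that reached 0. SMAD7, the inhibitory SMAD that brings ubiquitin ligases to the receptor, had 3.04 FPKM in shControl and 3.55 FPKM in shFKBP9, from 277 and 307 fragments. Its log2 ratio of 0.22 (-0.01 to 0.46) had an interval that included 0, so a difference between the libraries was not detectable at this depth. This depended on the scaling, as the interval lay above 0 with median-ratio scaling (0.0028 to 0.48) and with a trimmed mean of log ratios (0.014 to 0.49). SKIL encodes SnoN, a corepressor that binds SMAD complexes and is degraded and then induced again upon TGF-beta signalling. It had 3.21 FPKM in shControl and 4.28 FPKM in shFKBP9, from 452 and 572 fragments, a log2 ratio of 0.41 (0.24 to 0.60) that 2.41% of the 8372 genes reached. SMAD7 (chr18:48919853-48952052, minus strand) and SKIL (chr3:170357678-170396835, plus strand) overlap no other gene of the deposited table.

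Set against each other within a library, the inhibitory SMAD7 and the activating SMAD3 had a FPKM ratio of 0.266 in shControl and 0.457 in shFKBP9. This log2 change of 0.78 (0.52 to 1.04) was the largest in size of the 7 pairs that were compared, and its main part was the lower SMAD3. SKI, the paralogous corepressor of SKIL, had 6.86 and 7.53 FPKM. The ratio of SKIL to SKI was 0.468 in shControl and 0.569 in shFKBP9, a log2 change of 0.28 (0.05 to 0.52), with an interval close to 0 at its lower end.

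To set the promoters of these members beside their ratios, the 250 bases before a RefSeq start (GRCh38.p14) are printed for TGFBR1, SKIL and SMAD3, which passed the log2 ratio of 0.32, and for SMAD7, a classical SMAD-responsive gene. Where RefSeq lists several starts, as for TGFBR1 with 8 windows, SMAD3 with 5 and SMAD7 with 3, the window at the start of the canonical GENCODE transcript was taken, and the others were not searched. Each is read 5′ to 3′ on the strand of its gene, and capitals mark CAGAC or its reverse complement GTCTG, the short motif bound by SMAD3 and SMAD4. The regions are chr9:99104863-99105112 on the plus strand for TGFBR1, chr3:170357465-170357714 on the plus strand for SKIL, chr15:67065352-67065601 on the plus strand for SMAD3 and chr18:48950966-48951215 on the minus strand for SMAD7.
TGFBR1: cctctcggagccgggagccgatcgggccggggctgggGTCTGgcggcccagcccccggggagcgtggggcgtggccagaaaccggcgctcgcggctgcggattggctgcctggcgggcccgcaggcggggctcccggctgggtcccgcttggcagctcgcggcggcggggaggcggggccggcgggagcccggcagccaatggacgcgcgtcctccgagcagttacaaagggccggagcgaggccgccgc
SKIL: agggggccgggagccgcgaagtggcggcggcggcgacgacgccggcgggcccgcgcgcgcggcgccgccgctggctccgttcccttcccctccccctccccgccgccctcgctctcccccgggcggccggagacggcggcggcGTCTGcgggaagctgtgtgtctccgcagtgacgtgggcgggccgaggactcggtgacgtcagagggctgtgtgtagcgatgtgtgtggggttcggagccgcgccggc
SMAD3: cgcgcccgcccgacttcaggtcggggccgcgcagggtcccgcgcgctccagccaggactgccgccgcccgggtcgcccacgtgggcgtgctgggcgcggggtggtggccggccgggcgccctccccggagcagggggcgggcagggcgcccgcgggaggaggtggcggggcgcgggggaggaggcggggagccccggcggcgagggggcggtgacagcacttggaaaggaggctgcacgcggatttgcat
SMAD7: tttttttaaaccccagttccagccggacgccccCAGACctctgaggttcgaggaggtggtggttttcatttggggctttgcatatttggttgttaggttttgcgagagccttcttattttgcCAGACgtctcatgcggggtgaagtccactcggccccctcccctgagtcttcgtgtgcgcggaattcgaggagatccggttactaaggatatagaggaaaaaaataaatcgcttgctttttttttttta

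CAGAC, searched on both strands, was found in the 1 window taken per member for 4 of the 9 members and in 38.0% of all 35116 promoter windows of this length. The window of TGFBR1 holds it once, 213 to 209 bases before the start, and that of SKIL once, 107 to 103 bases before it. SMAD7 has it at 217 to 213 and at 128 to 124 bases, TGFB2 at 243 to 239 and at 53 to 49 bases, and SMAD3 has none in this window. GGCGC, a GC-rich SMAD motif, occurred in 6 of the 9 windows and in 44.5% of all windows, with 7 matches in SMAD3. Some of these overlap, namely those at 136 to 132 and 135 to 131 bases and those at 106 to 102 and 105 to 101 bases. The palindrome GTCTAGAC and the AP-1 motif TGANTCA occurred in 0 of the 9 windows, compared with 0.182% and 6.57% of all windows. The windows of TGFBR1, SKIL and SMAD3 are rich in G and C, at 79.6%, 78.4% and 80.8%, as are those of TGFB1 and TGFBI at 76.8% and 72.8%, while that of SMAD7 is at 48.0% and the median of all windows at 58.0%. These matches describe the letters of the windows, as binding was not measured.

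TGFBI, a secreted matrix protein that binds collagens and integrins and is named for its induction by TGF-beta, was by far the most abundant member. It had 1136 FPKM in shControl and 1345 FPKM in shFKBP9, from 160639 and 180294 fragments, and ranked 19th and 17th among all genes. With so many fragments the log2 ratio of 0.24 had a narrow interval (0.23 to 0.25), but 9.35% of the 8372 genes had a ratio as high. The ratio of TGFBI to TGFB1 was 14.8 in shControl and 17.7 in shFKBP9, a log2 change of 0.26 (0.20 to 0.32). TGFBI (chr5:136028895-136063818, plus strand) overlaps no other gene.

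Per deposited gene length, the levels in shControl ran from TGFBI over TGFB1, TGFBR2, TGFBR1, TGFB3, TGFB2 and SMAD3 to SKIL and SMAD7. The counting intervals of neighbours overlapped from TGFBR1 to SMAD3 and for SKIL and SMAD7, which does not show that these levels were equal. In shFKBP9 the order was TGFBI, TGFB1, TGFBR2, TGFBR1, TGFB2, TGFB3, SMAD3, SKIL and SMAD7, and the last pair alone overlapped. The order below TGFBR2 depended on the length. Per length of the canonical GENCODE transcript, an alternative added after the data were seen, it was TGFB3, SMAD3, TGFBR1, TGFB2, SMAD7 and SKIL in shControl, and TGFBR1, TGFB3, TGFB2, SMAD3, SMAD7 and SKIL in shFKBP9. TGFBI, with 7810 deposited and 2712 canonical bases, kept the first place, followed by TGFB1 and TGFBR2. The ratios of a gene between the libraries do not depend on the length.

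The surrounding pathway was described with 118 further genes in 6 lists, of which 80 reached 1 FPKM in a library. Of these 80, 16 were higher and 7 lower past the threshold of 0.32, that is 20% and 8.75%, and their median log2 ratio was 0.10. These shares are to be read beside 9.83% and 11.1% of the 12741 genes and 4.72% and 4.93% of the 8372. Of the measured target genes, 12 of 32 passed, compared with 0 of 6 other receptors, 0 of 6 other SMADs and 0 of 13 corepressors, ubiquitin ligases and other inhibitors. The target genes did not have the highest share, with 28.1% higher and 9.4% lower. It was 35.7% and 7.14% for the latent complex and 22.2% and 33.3% for the activin, BMP and GDF genes. A difference between the lists was not tested.

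Of the 18 genes of the latent complex and its activation, 14 were measured at 1 FPKM or more, with a median of 0.16. Of these, 5 were higher, 1 was lower and 8 did not pass the threshold of 0.32. That is 35.7% higher and 7.14% lower, beside 9.83% and 11.1% of the 12741 genes and 4.72% and 4.93% of the 8372. THBS1, thrombospondin 1, which can release active TGF-beta from the latent complex, had 2.64 FPKM in shControl and 5.17 FPKM in shFKBP9, a log2 ratio of 0.95 (0.80 to 1.14). The proteoglycan DCN, which binds TGF-beta, was at 2.34 and 3.51 FPKM, a log2 ratio of 0.57. FBN1, fibrillin 1, which anchors latent complexes in the matrix, was at 29.7 and 38.1 FPKM, a log2 ratio of 0.36. The other genes that were higher were LTBP2, at 1.93 and 2.85 FPKM, and the integrin subunit ITGB8, at 0.776 and 1.04 FPKM, whose log2 ratio of 0.38 was 0.20 and no longer past the threshold when 1 FPKM was added. LTBP4, a latent TGF-beta binding protein that tethers the complex to the matrix, was the 1 lower gene, at 8.65 FPKM in shControl and 6.65 FPKM in shFKBP9. ITGB1, the most abundant gene of the list, was at 104.9 and 127.7 FPKM, a log2 ratio of 0.28.

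Genes that work beside the members at the receptor and in the nucleus showed small ratios. The 6 other receptors that were measured had a median log2 ratio of -0.11, and ACVR1, a type I receptor for BMP ligands and the most abundant of them, was at 14.9 and 16.2 FPKM. The 6 other SMADs had a median of 0.05, with SMAD5, which acts downstream of BMP receptors, highest at 5.92 and 6.57 FPKM. SMAD3 at -0.55 thus lay outside the range of the other SMADs, which ran from -0.29 to 0.15. The 13 measured corepressors, ligases and other inhibitors ranged from -0.22 to 0.26, below SKIL at 0.41, and STRAP, which holds SMAD7 at the receptor, was the most abundant at 69.5 and 65.5 FPKM.

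Among 37 known TGF-beta target genes other than the members, 32 were measured at 1 FPKM or more, with a median of 0.14. Of these, 9 were higher, 3 lower and 20 not past 0.32 in size. That is 28.1% higher and 9.4% lower, beside 9.83% and 11.1% of the 12741 genes and 4.72% and 4.93% of the 8372. With a trimmed mean of log ratios or with median-ratio scaling the split was 10 higher and 1 lower. EDN1, the vasoconstrictor endothelin 1, was the 1 gene past 2-fold, with 1.06 and 2.61 FPKM from 39 and 91 fragments, a log2 ratio of 1.22 (0.74 to 1.88), which was 0.81 and thus below 2-fold when 1 FPKM was added.

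Of the other targets past 0.32, 5 more are given here. TAGLN, which binds actin, was at 11.9 and 18.5 FPKM, CNN1, calponin, at 12.1 and 18.0 FPKM, and ACTA2, smooth muscle actin, at 34.0 and 50.4 FPKM, log2 ratios of 0.63, 0.57 and 0.56. TAGLN overlaps PCSK7, and with the fragments of both summed, 63.2% of them from TAGLN, the log2 ratio was 0.29 and no longer past 0.32. CTGF, a matricellular growth factor, was at 6.66 FPKM in shControl and 10.3 FPKM in shFKBP9, a log2 ratio of 0.62. The cytokine IL11 was at 10.3 and 15.1 FPKM, a log2 ratio of 0.55. COL1A1, a fibrillar collagen and the most abundant target, was at 837 and 884 FPKM, a log2 ratio of 0.08.

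The 3 lower targets were ID1, ID3 and TSC22D1, the last 2 named after their values were seen. ID1, an inhibitor of basic helix-loop-helix factors that BMP signalling induces, had 193.9 FPKM in shControl and 112.8 FPKM in shFKBP9, a log2 ratio of -0.78 (-0.85 to -0.71). ID3, of the same family, was at 94.6 and 75.6 FPKM, and TSC22D1, a leucine zipper factor, at 16.2 and 12.9 FPKM, log2 ratios of -0.32 and -0.33. The cell cycle inhibitor CDKN2B and the growth factor PDGFB had 0 fragments in both libraries, and were named for this reason.

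The related activin, BMP and GDF ligands and their antagonists were mostly low, as 21 of 30 stayed below 1 FPKM, of which 11 had 0 fragments in both libraries. Of the 9 measured, 2 were higher and 3 lower past 0.32 in size, with a median of -0.11. These shares of 22.2% and 33.3% stand beside 9.83% and 11.1% of the 12741 genes and 4.72% and 4.93% of the 8372. The BMP antagonist GREM1 was among the higher genes, at 20.6 FPKM in shControl and 32.4 FPKM in shFKBP9, a log2 ratio of 0.65. The lower genes were the ligands AMH, at 2.33 and 1.42 FPKM, GDF11, at 3.70 and 2.41 FPKM, and GDF5, at 6.32 and 4.86 FPKM. FSTL1, a secreted glycoprotein that binds activin and BMP ligands, was the most abundant at 41.9 FPKM in shControl and 44.8 FPKM in shFKBP9.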

How the data were processed

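RNA of SF-539 cells was sequenced as 1 library for shControl and 1 for shFKBP9. The authors aligned reads to hg38 with HISAT2 2.0.5, counted them per gene with featureCounts 1.5.0-p3 (versions per the submitters' processing notes) and deposited FPKM with gene positions and lengths, in a table with 0 unused columns of library values. The release of the gene annotation is not given in the sources used here.

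Fragments were recovered from FPKM, gene length and the smallest step of each library, with all values whole within 0.01 of a fragment. Intervals were exact, namely Clopper-Pearson for ratios between the libraries, Poisson for levels and the conditional odds ratio for pairs, and cover counting error only. The computations were tested on simulated data. Overlapping genes came from the deposited coordinates, canonical transcripts from GENCODE 44, and promoter windows from the RefSeq table of GRCh38.p14, in which all 9 members matched. The software was Python 3.11.15 with scipy 1.17.1, pandas 2.3.3, numpy 2.4.6 and, for plots, matplotlib 3.10.9.

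The members and lists were chosen with earlier results of these data known. Named genes were FKBP9, the members, genes that overlap them, partners in ratios, the most abundant gene of each list, and up to 8 genes per list past a log2 ratio of 0.32 in size, with 1 FPKM or more in a library and an interval that left out 0. Some genes that the lists count are not reported here by name. Alternatives were another added value, another scaling, another minimum, TPM, overlapping genes summed, protein-coding genes only, a 99.9% interval and, chosen after seeing the data, a minimum of 3 FPKM in both libraries and the canonical transcript length.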

Additional observations from a re-analysis of the deposited data

How the results depend on the processing

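Each group was 1 library, so that clone, culture and library cannot be told apart from the shRNA. No paired analysis was possible because each group held 1 library and no test was made. The counts of members past a log2 ratio of 0.32 in size and past 2-fold were the same with 1 or 0.01 added to FPKM, with median-ratio scaling, with a trimmed mean of log ratios, as TPM, with no minimum and with a minimum in both libraries. The log2 ratio ranged over these alternatives and the sum with overlapping genes from 0.49 to 0.54 for TGFBR1, from 0.33 to 0.43 for SKIL, from -0.57 to -0.50 for SMAD3 and from -0.12 to 0.01 for TGFB1, whose sign turned. With 1 added, FKBP9 stood at -3.16, and counts past 0.32 were 1 for lower target genes and 1 for higher activin, BMP and GDF genes. Median-ratio scaling and the trimmed mean also left 1 lower target gene. With no minimum, 8 genes of the latent complex were higher, 1 other receptor was higher and 1 lower, and 6 activin, BMP and GDF genes were higher and 5 lower. Per canonical transcript length, the order of the members below TGFBR2 was another one. The background moved with the genes counted: of protein-coding genes 0.406% passed 2-fold and 12.8% passed 0.32, and of genes that reached 3 FPKM in both libraries 0.203% and 9.65%, against 4.21% and 20.9%. Of the pathway genes named, ITGB8, TSC22D1, ID3, NEDD9 and GDF5, of which NEDD9 is named for this reason alone, lost the call at 0.32 with another added value or scaling, and TAGLN and TSC22D1 with overlapping genes summed. The 2-fold call of EDN1 was lost with 1 added (0.81), and the interval of SMAD7 left out 0 with median-ratio scaling and the trimmed mean, for 6 members above 0.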
